A study of Rattus norvegicus with 6 samples.

Results

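Ppp1r15a and Hspa8 were examined in the ventromedial hypothalamus (VMH) of rats, as 2 features among the 29039 of the deposited count table. Both were chosen by name, from tables of genes that had been called in these same libraries. Their difference between the groups is therefore what chose them, and it is given below as a description with no test. Ppp1r15a is feature ENSRNOG00000020938 in the deposited tables. The name Hspa8 belongs to Novel00474, an unannotated feature that the deposited KEGG table pairs with the Entrez ID of rat Hspa8.

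Cells under stress slow protein synthesis by phosphorylating the translation initiation factor eIF2α, and they hold unfolded proteins on chaperones until folding can go on. Ppp1r15a, also called Gadd34, encodes a stress-induced subunit that brings protein phosphatase 1 to eIF2α, so that translation can start again. Hspa8, also called Hsc70, encodes the constitutive cytosolic chaperone of the Hsp70 family. It folds new proteins, strips the clathrin coat from vesicles, which matters at synapses, and delivers proteins to lysosomes.

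RNA was sequenced from bilateral VMH micropunches of 6 Sprague Dawley rats aged about 10 months, with 1 library per rat. A towel that ferrets had used as bedding gave the predator odor (PO) to 3 rats (P8, P13 and P14), and a clean towel gave the control odor to 3 rats (C2, C3 and C4). The exposure lasted 20 minutes in the home cage, and the rats of both groups had been handled and given the control odor every day for 2 weeks. The libraries held 17479862 to 20316213 counts after PO and 15835375 to 18370871 after control odor, and 16685 features had enough counts to be tested. A micropunch holds many cell types, so fewer cells of a type and less RNA per cell cannot be told apart. None of the 8 markers of VMH neurons on the list used here has a name in these tables, so the tissue label could not be checked against them.

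The promoter windows of the 2 genes are shown because stress-responsive genes are commonly recognised by short motifs near their start. The sequences are RefSeq's, from the rat assembly GRCr8, which is not the build the reads were aligned to. Each covers 250 bases before and 50 bases after the annotated start and runs 5′ to 3′ on the strand of the gene. The window of Ppp1r15a is chr1:105139547-105139846 on the minus strand, and its capitals mark a cyclic AMP response element (CRE, TGACGTCA). The window of Hspa8 is chr8:50080264-50080563 on the plus strand, and its capitals mark heat shock elements of 3 units (GAANNTTCNNGAA).
Ppp1r15a: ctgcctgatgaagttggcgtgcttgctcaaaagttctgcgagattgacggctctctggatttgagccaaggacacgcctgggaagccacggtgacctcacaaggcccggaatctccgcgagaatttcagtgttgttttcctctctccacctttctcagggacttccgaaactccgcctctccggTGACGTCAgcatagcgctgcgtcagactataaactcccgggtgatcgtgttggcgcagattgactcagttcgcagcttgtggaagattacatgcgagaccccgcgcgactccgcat
Hspa8: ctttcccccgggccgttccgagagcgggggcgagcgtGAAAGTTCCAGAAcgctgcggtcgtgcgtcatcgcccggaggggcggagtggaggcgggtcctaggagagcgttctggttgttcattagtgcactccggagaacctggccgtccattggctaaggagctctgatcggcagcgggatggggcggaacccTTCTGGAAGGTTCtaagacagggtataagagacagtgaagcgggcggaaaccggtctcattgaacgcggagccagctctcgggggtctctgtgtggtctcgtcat

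Motifs were searched on both strands of 33469 rat promoter windows of 300 bases, and the motifs were chosen with these 2 sequences in view. The CRE lies at bases 185 to 192 of the Ppp1r15a window, 66 bases before the start, and 1.83% of all windows hold one. A TATA box (TATAAA, in 14.2% of windows) stands at bases 212 to 217 of the same window. Hspa8 has no CRE in its window. It has heat shock elements of 3 units at bases 38 to 50 and, on the other strand, at bases 196 to 208, and 0.798% of all windows hold at least 1. Each overlaps matches to the 2-unit forms GAANNTTC (8.59% of windows) and TTCNNGAA (8.77%). The Hspa8 window also holds an EGR site (GCGGGGGCG, in 2.73% of windows) at bases 24 to 32 and a CCAAT box (CCAAT, in 37.5%) at bases 152 to 156. A CArG box (1.64% of windows) and the core TGATGNAA of a CARE (3.98%), a motif of stress-induced ATF4 targets, were found in neither window. A match is a stretch of letters and not a site that was shown to be bound, and it is not known that Novel00474 starts at the Hspa8 promoter.

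**Figure D1:**
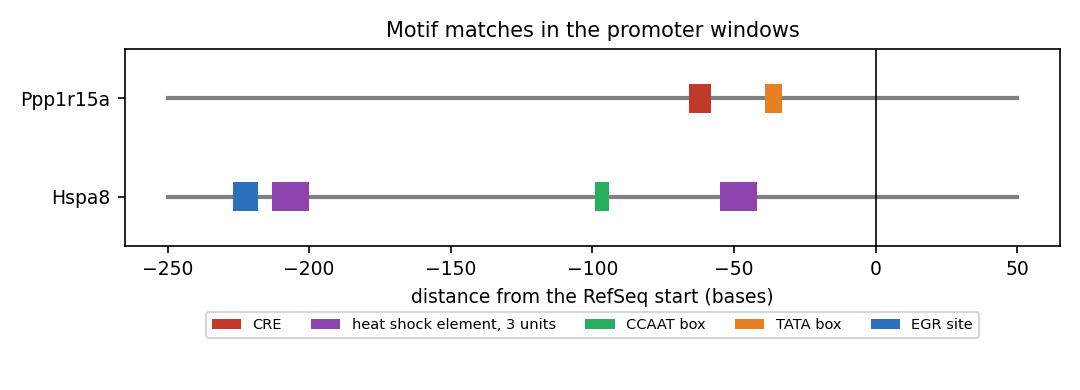
Motif matches in the promoter windows of Ppp1r15a and Hspa8, drawn to scale against the distance in bases from the RefSeq start (vertical line). The CRE of Ppp1r15a lies 66 bases before the start, and the 2 heat shock elements of Hspa8 begin 213 and 55 bases before it.

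Ppp1r15a stood higher after PO exposure than after control odor in every library. Its level, in CPM (counts relative to the TMM-scaled library total), was 45.7 in P8, 48.0 in P13 and 49.7 in P14, against 32.7 in C2, 36.5 in C3 and 36.3 in C4. The groups did not overlap, and the lowest PO library lay 25.1% above the highest control odor library. The means were 47.8 ± 2.03 CPM after PO and 35.2 ± 2.13 CPM after control odor (SD, n = 3 each). This is a log2 fold change of 0.44 (standard error 0.08, edgeR), or 1.36-fold, which is under the 1.5-fold threshold of the study.

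The raw counts behind these levels were 913, 870 and 831 in P8, P13 and P14, against 578, 596 and 674 in C2, C3 and C4. At these counts, counting error alone gives a coefficient of variation of 3.31% to 3.47% in a PO library and 3.85% to 4.16% in a control odor library. The coefficient of variation between rats in CPM was 4.24% after PO and 6.06% after control odor. The observed value was above that of counting error in both groups. It includes counting error, and the excess was not tested. The biological coefficient of variation that edgeR fitted to Ppp1r15a was 0.092, against a median of 0.141 over all features tested. The trend that edgeR fitted against level gave 0.111 at the level of Ppp1r15a. The fitted value of a feature is drawn toward this trend, so it is not the spread between these rats alone. Intervals from counts cover counting error only, since reads without molecular identifiers are not independent molecules.

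Hspa8, as Novel00474, also stood higher after PO in every library. Its level was 101 CPM in P8, 103 in P13 and 109 in P14, against 86.5 in C2, 75.0 in C3 and 85.1 in C4. The groups did not overlap, with a gap of 16.5% between the lowest PO and the highest control odor library. The means were 104 ± 4.37 CPM after PO and 82.2 ± 6.26 CPM after control odor (SD, n = 3 each), a log2 fold change of 0.34 (standard error 0.07, edgeR) or 1.27-fold. The lowest value of all was that of C3, and without C3 the log2 fold change was 0.28.

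The raw counts of Novel00474 were 2014, 1859 and 1823 in P8, P13 and P14, against 1527, 1224 and 1578 in C2, C3 and C4. Counting error gives a coefficient of variation of 2.23% to 2.34% in the PO libraries and 2.52% to 2.86% in the control odor libraries. Between rats it was 4.2% after PO and 7.61% after control odor. The fitted biological coefficient of variation was 0.0795, and 12.4% of the features tested had a smaller one. The trend against level gave 0.09 at the level of Novel00474, and here too the fitted value is drawn toward the trend.

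**Figure D2:**
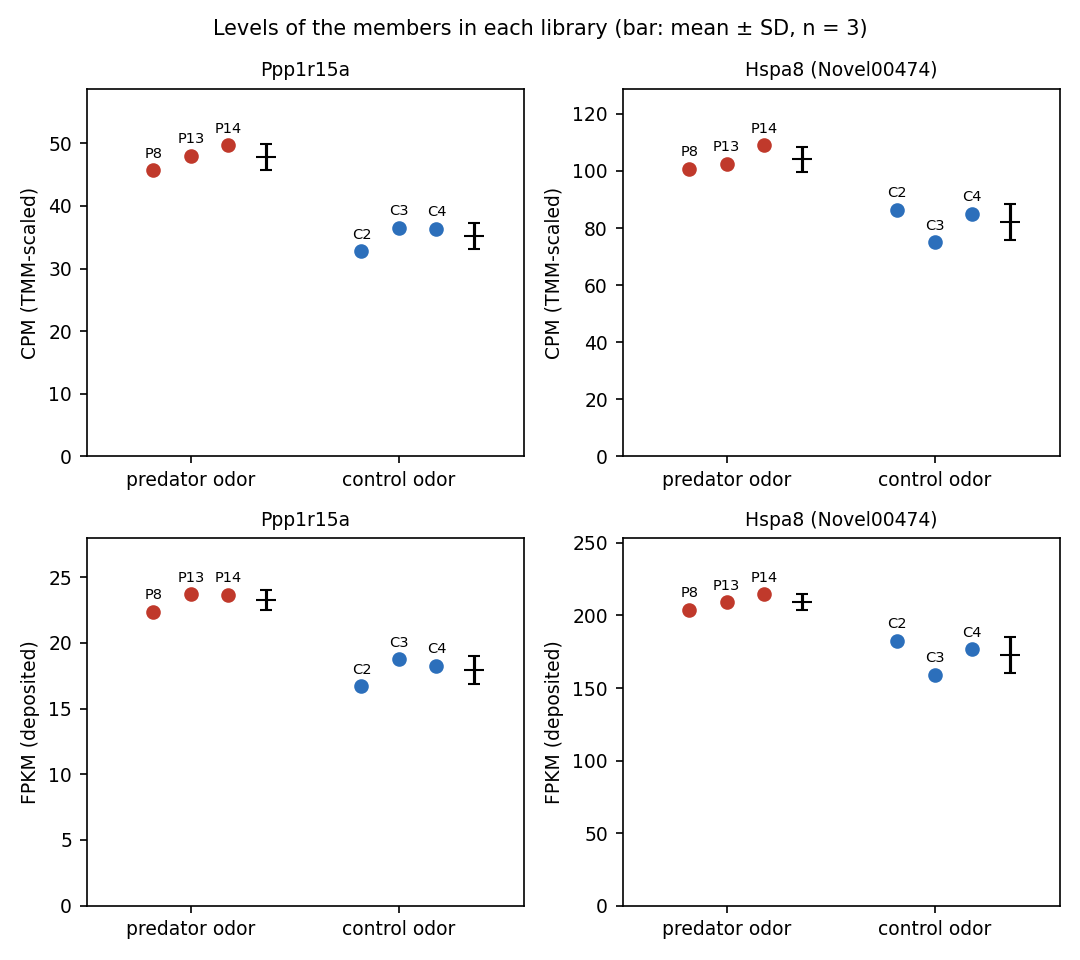
Level of Ppp1r15a (left) and of Novel00474, named Hspa8 (right), in each library, in TMM-scaled CPM (top) and in deposited FPKM (bottom), with all axes from 0. Points are libraries and the bars give mean ± SD over 3 rats. In all 4 panels the 3 PO libraries lie above the 3 control odor libraries.

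The members were chosen from the study's calls on this contrast, and the fits made here gave the following values. In the fit across all genes edgeR gave Ppp1r15a an adjusted p of 0.0481 and Novel00474 one of 0.0583, and DESeq2 gave 0.00112 and 0.00303. edgeR thus called 1 of the 2 members as higher after PO. Of all features tested it called 0.144% as higher and 0.21% as lower, 0.354% in either direction. DESeq2 called both members, and of the 13707 features to which it gave an adjusted p it called 4.23% as higher and 2.08% as lower, 6.31% in either direction. All 3 PO libraries lay above all 3 control odor libraries in both members and in 13% of the features tested, and below them in 13.2%. Nothing is read from these counts, since the members were picked on this contrast. Without each library in turn, the adjusted p from edgeR lay between 0.036 and 0.171 for Ppp1r15a and between 0.0461 and 0.176 for Novel00474. The call of Ppp1r15a was lost without C2, C3, C4 or P14, and also with scaling by library size alone, without edgeR's robust option and with limma voom, at adjusted p values of 0.0515, 0.0906 and 0.0995. For scale, 6.02% of the features tested had a larger log2 fold change than Ppp1r15a and 8.75% a larger one than Novel00474, and the median over all features was -0.01.

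**Figure D3:**
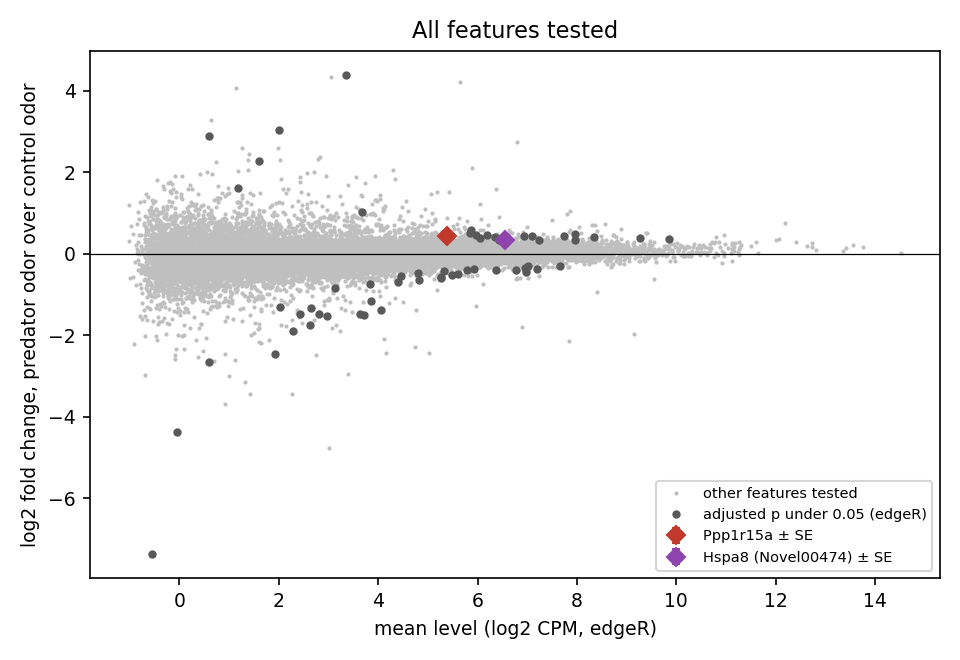
Log2 fold change of PO over control odor (vertical) against mean level in log2 CPM (horizontal) for the 16685 features tested. Grey points are features, dark points the 59 that edgeR called, and diamonds with bars the members with their standard errors. Ppp1r15a at 0.44 and Novel00474 at 0.34 lie in the upper part of the cloud, above the line at 0.

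On the scale of FPKM, which divides by feature length, Novel00474 stood higher than Ppp1r15a. Novel00474 had 204, 209 and 215 FPKM in P8, P13 and P14, against 182, 159 and 177 FPKM in C2, C3 and C4. Ppp1r15a had 22.4, 23.7 and 23.7 FPKM in P8, P13 and P14, against 16.7, 18.7 and 18.3 FPKM in C2, C3 and C4. Among the features tested, Novel00474 ranked between 520 and 539 in the PO libraries and between 583 and 663 in the control odor libraries. Ppp1r15a ranked between 3990 and 4240 in the PO libraries and between 4951 and 5285 in the control odor libraries. The deposited FPKM are scaled by total counts and not by TMM, and on that scale the ratio of the means, PO over control odor, was 1.3 for Ppp1r15a and 1.21 for Novel00474.

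The FPKM and the counts together give the length over which each feature was counted. It was 2009 bases for Ppp1r15a and 486 bases for Novel00474, to within rounding in all 6 libraries. The median over the 1919 unannotated features that were tested was 1539 bases, so Novel00474 is a short feature, although only 11 of them had a higher mean FPKM. It took 0.31% to 0.431% of all counts on unannotated features. RefSeq names 33 pseudogenes of Hspa8 in the rat and none of Ppp1r15a. The position of Novel00474 is not given in the tables, and it is not stated how reads that fit several copies of a gene were counted. The value is thus that of a feature assigned to Hspa8, and not of the whole annotated gene. The strand was not stated to be used in counting, so reads from an overlapping gene on the other strand cannot be told apart.

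Within a library, the ratio of Novel00474 to Ppp1r15a in FPKM was 9.12, 8.83 and 9.07 in P8, P13 and P14, against 10.9, 8.49 and 9.68 in C2, C3 and C4. The PO libraries lay inside the range of the control odor libraries. Over the 6 libraries the log2 CPM of the members had a Pearson r of 0.863 and a Spearman rho of 0.771, and the points share the difference between the groups. Among the PO libraries both members were lowest in P8 and highest in P14. Among the control odor libraries Ppp1r15a was lowest in C2, where Novel00474 was highest, and highest in C3, where Novel00474 was lowest.

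The other genes of protein homeostasis could be read only in part, because 176 of the 29039 features have a gene name in the sources used here. Of 108 genes on 8 lists that cover eIF2α phosphatases and kinases, stress response targets, endoplasmic reticulum (ER) chaperones, the Hsp70 family and its co-chaperones, other heat shock proteins, clathrin uncoating and ubiquitin, 4 have a name. No gene of 5 of the lists is named, the Hsp70 family among them. Their names are known because the study had called them on the same data, so neither their number nor their direction is independent evidence. In edgeR's test 2 of the 4 rose after PO, none fell and 2 did not pass, against 0.144% of all features called as higher. Their median log2 fold change was 0.33, against -0.01 over all features.

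Atf5, a transcription factor that is translated when eIF2α is phosphorylated, rose after PO. It had 158, 175 and 173 CPM in P8, P13 and P14, against 129, 141 and 132 CPM in C2, C3 and C4. The groups did not overlap, and edgeR put the log2 fold change at 0.33 ± 0.06 (SE) with an adjusted p of 0.0481. Herpud1, an ER membrane protein that is induced by unfolded proteins and takes part in their degradation, rose to a like extent. It had 90.4, 98.0 and 98.2 CPM in P8, P13 and P14, against 76.4, 78.0 and 73.2 CPM in C2, C3 and C4. Here too the groups did not overlap, and edgeR put the log2 fold change at 0.33 ± 0.06 (SE) with an adjusted p of 0.0481. Both calls were lost when C2, C3, C4 or P14 was dropped, with edgeR adjusted p values of 0.198, 0.107, 0.112 and 0.0851 for Atf5 and 0.169, 0.129, 0.113 and 0.0854 for Herpud1. With scaling by library size alone it was 0.0683 and 0.0684 from edgeR. Without edgeR's robust option the adjusted p was 0.0906 for each gene, and with limma voom it was 0.101 for each.

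Josd2, a deubiquitinating enzyme, had 71.8, 79.9 and 96.3 CPM in P8, P13 and P14, against 57.9, 59.6 and 48.6 CPM in C2, C3 and C4. The estimate was 0.58 ± 0.12 on the log2 scale (SE), where edgeR's adjusted p was 0.0679 and that of DESeq2 0.000171. Fbxo2, a subunit of a ubiquitin ligase that recognises glycoproteins in neurons, had 287, 317 and 306 CPM in P8, P13 and P14, against 226, 260 and 255 CPM in C2, C3 and C4. The estimate was 0.3 ± 0.07 on the log2 scale (SE), where edgeR's adjusted p was 0.0673 and that of DESeq2 0.00303. Neither passed edgeR. The PO libraries lay above the control odor libraries in all 4 named genes and in 13% of all features tested. In the promoter windows of these 4 genes, Herpud1 holds a CARE core, a CArG box and 2 CCAAT boxes, Josd2 holds a 2-unit heat shock element and 1 CCAAT box, and neither a CRE nor a 3-unit heat shock element was found.

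Ppp1r15a is also induced early by growth factors and by activity in several cell types, so the immediate early genes are set beside it. Of 31 on the list, 5 have a name, and in all 5 the PO libraries lay above the control odor libraries, as they did in 13% of all features tested. They were taken from genes the study called, so this is not independent evidence. Arc, a regulator of synaptic strength, rose by 1.01 ± 0.16 on the log2 scale (SE), and its edgeR adjusted p was 0.0396. The call was lost without C2, C4 or P14, where edgeR's adjusted p was 0.131, 0.0612 and 0.07. It was also lost without edgeR's robust option and with limma voom, at adjusted p values of 0.0861 and 0.0848. The estimates of the other named genes were 1.49 for Fosb, 0.88 for Egr1, 0.69 for Egr4 and 0.6 for Btg2, and these did not pass edgeR. All 5 estimates were above the 0.44 of Ppp1r15a, and the difference between Ppp1r15a and these genes was not tested.

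**Figure D4:**
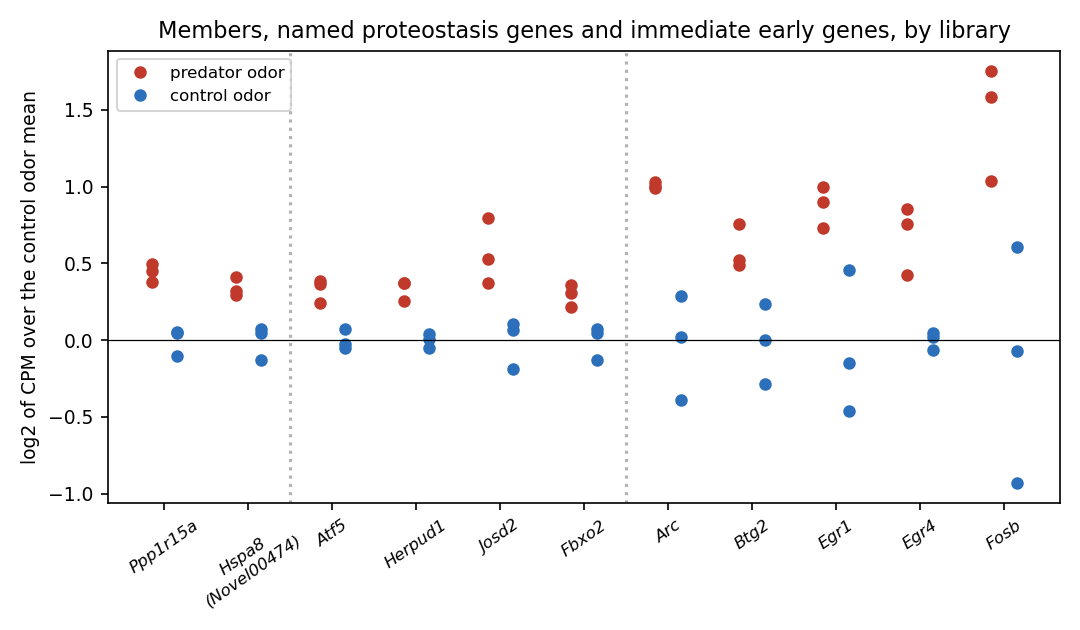
Level of each member, of the 4 named genes of protein homeostasis and of the 5 named immediate early genes in every library, as log2 of CPM over the control odor mean. Red points are the 3 PO libraries and blue points, to their right, the 3 control odor libraries. The PO points lie above the control odor points in all 11 features.

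The deposited KEGG table lists Novel00474 under 3 pathways, each with genes that the study had called. Under the spliceosome, its 4 partners were Lsm4, Srsf5, Srsf6 and Ddx17. Lsm4, a core protein of small nuclear ribonucleoproteins, stood at 130 ± 9.92 CPM after PO and 106 ± 5.19 CPM after control odor (SD, n = 3). The splicing regulators Srsf5 and Srsf6 stood at 168 ± 12.7 and 90.9 ± 11.2 CPM after PO, against 212 ± 8.88 and 120 ± 6.46 CPM after control odor (SD, n = 3). The RNA helicase Ddx17 stood at 72.7 ± 5.68 CPM after PO and 97.4 ± 9.82 CPM after control odor (SD, n = 3). None of these 4 passed edgeR, with adjusted p values of 0.0519 to 0.0673, while those from DESeq2 were 0.00143 to 0.0083. Of the 4, 3 had a fold change opposite in sign to that of Novel00474. Under antigen processing, its 4 partners RT1-Ba, RT1-Bb, RT1-Da and Cd74, genes of class II antigen presentation, had log2 fold changes of -2.67, -1.9, -1.75 and -1.22. Of these, edgeR called RT1-Ba and RT1-Bb as lower, at adjusted p values of 0.0337 and 0.027, where 0.21% of all features were called as lower. Both stood at low levels. RT1-Ba had 0.37 ± 0.213 CPM after PO and 2.44 ± 0.315 CPM after control odor (SD, n = 3). RT1-Bb had 1.99 ± 0.836 CPM after PO and 7.51 ± 1.15 CPM after control odor (SD, n = 3). RT1-Da and Cd74 did not pass edgeR, at adjusted p values of 0.1 and 0.0663. DESeq2 gave RT1-Bb, RT1-Da and Cd74 adjusted p values of 7.08e-07, 0.00134 and 6.97e-07, and it gave RT1-Ba none. The study had called these partners on the same libraries, so their number is not independent evidence. Toxoplasmosis holds 3 of the same 4 genes.

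Likeness of level over the 6 libraries was measured by Pearson r of log2 CPM and is given with no test. Of the other 16684 features, 472 had an r of 0.9 or more with Ppp1r15a and 476 with Novel00474. On log2(FPKM + 1) these counts were 200 and 184. The named features most like Ppp1r15a were Gstt3, a glutathione transferase (r = 0.996), Sirt2, a deacetylase abundant in oligodendrocytes (0.986), Shisa4 (0.986), Lfng, which modifies Notch receptors (0.981), and Nkain4 (0.975). Gstt3 had 79.3, 84.1 and 88.4 CPM in P8, P13 and P14, against 56.0, 63.1 and 65 CPM in C2, C3 and C4. The named features that ran most opposite to Ppp1r15a were Fn1, which encodes fibronectin (r = -0.990), Extl3, an enzyme of heparan sulfate synthesis (-0.983), and Mt-nd4l, a subunit of mitochondrial complex I (-0.982).

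Those most like Novel00474 were S100a1, a calcium-binding protein (r = 0.989), Ppt2, a lysosomal thioesterase (0.954), LOC103693210 (0.950), Tspo, which binds cholesterol at the outer mitochondrial membrane (0.944), and Pde6h (0.942). S100a1 had 62.5, 66.4 and 73.6 CPM in P8, P13 and P14, against 48.7, 41.8 and 51.7 CPM in C2, C3 and C4, with the lowest value in C3 as in Novel00474. Pde6h stood under 1 CPM in all 3 control odor libraries. The most opposite were Nktr, a cyclophilin-related protein (r = -0.989), Mat2a, which makes S-adenosylmethionine (-0.978), and Uba2, a subunit of the enzyme that activates SUMO (-0.973). Almost all names come from called genes, so a high r mainly restates that these features separate the groups.

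Other measures of the libraries are set beside these levels. The summed levels of every marker list with a named member did not overlap between the groups. Almost all names come from genes the study called on this contrast, so neither this nor the directions below are independent evidence. Of the single features tested, 13% had all 3 PO libraries above all 3 control odor libraries, and 13.2% had them below. Summed over the named markers, oligodendrocyte genes (5 of 12 named) stood at 282 to 360 CPM after PO and 158 to 219 CPM after control odor. Genes of leptomeningeal fibroblasts (8 of 10 named) stood at 33.1 to 71.6 CPM after PO and 138 to 217 CPM after control odor. Genes of ependyma and choroid plexus (5 of 8 named) stood at 58.6 to 96.2 CPM after PO and 30.8 to 37.9 CPM after control odor. No named marker was at 0 in all libraries. Of microglia and macrophages only Cd74 is named (1 of 7), at 7.9 to 15.4 CPM after PO and 23.6 to 27.6 CPM after control odor. No marker of neurons, astrocytes or endothelium is named. Spliced reads were 25.14%, 25.76% and 24.84% of all reads in P8, P13 and P14, against 25.84%, 25.79% and 25.73% in C2, C3 and C4, so the groups overlapped. Unannotated features took 2.42% to 2.46% of counts after PO and 2.47% to 2.49% after control odor, so that their summed share was lower where Novel00474 was higher. The part of any of these in the levels of Ppp1r15a and Hspa8 was not tested.

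The fold changes of the members kept their sign under every alternative tried, 16 for each member. They lay between 0.36 and 0.48 on the log2 scale for Ppp1r15a and between 0.28 and 0.38 for Novel00474. With scaling by library size alone they were 0.38 and 0.28. The TMM factors did not overlap between the groups, at 0.957 to 0.992 after PO and 1.01 to 1.03 after control odor. Scaling by library size alone changed the calls over all features to 16 higher and 87 lower, against 24 higher and 35 lower with TMM.

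**Figure D5:**
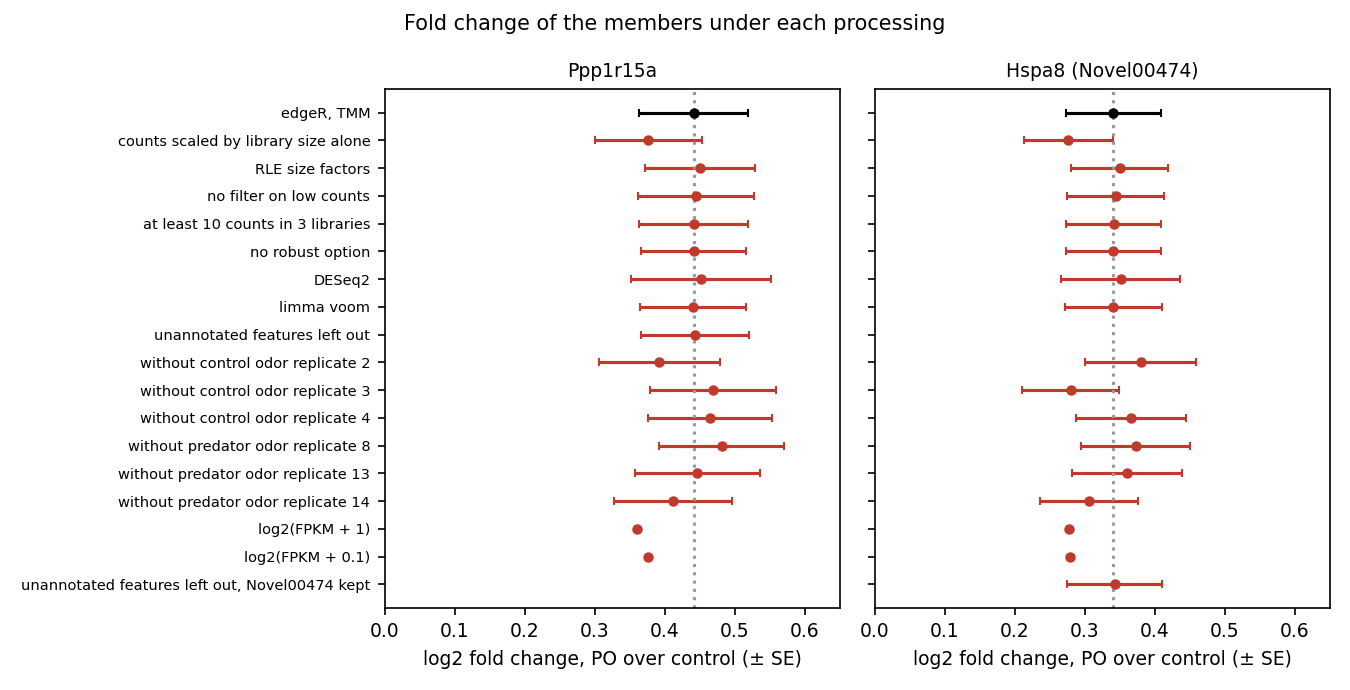
Log2 fold change of Ppp1r15a (left) and Novel00474 (right), PO over control odor, under each processing, with the standard error as a bar where the fit gives one. The black point is the edgeR fit with TMM (0.44 and 0.34), repeated as a dotted line. All points lie above 0.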

How the data were processed

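VMH RNA of 6 rats was analysed, grouped by the submitters' labels. The deposited raw counts were made by the authors with HISAT2 2.1.0-beta on Ensembl Rnor_5.0 version 79 and HTSeq 0.6.1 in union mode, and the deposited FPKM were computed by the authors from these counts. The deposited quality table gives percent values per library. The authors' fold changes, p-values and GO results were not used, and of their called-gene and KEGG tables only the names were used. Names were found for 176 features, 151 in the called-gene table, 4 by Entrez ID and 21 in the paper. The method behind the unannotated features was not given in the sources used here.

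Counts were fitted in R 4.3.3 by edgeR 4.0.16, using filterByExpr, TMM and a robust quasi-likelihood fit, with Benjamini-Hochberg adjustment at 0.05 over all 16685 features tested. DESeq2 1.42.0, the tool of the study, and limma 3.58.1 (voom) were alternatives. Likeness used log2 CPM with a prior count of 1. Tables and figures used Python 3.11.15, pandas 2.3.3 and Matplotlib 3.10.9. The tests were also tested on simulated data. Pairs of libraries of a group differed beyond sampling noise, by a chi-square per degree of freedom of 5.27 to 12.1. The named genes were the members, the list genes with a name (those past the threshold, or the 3 with the smallest p), and for each member the 5 named features of highest and the 3 of lowest r. Fosb, Egr1, Egr4, Btg2 and the KEGG partners fall outside this rule and were chosen after seeing their values. The members and lists were chosen with earlier results of these data known. Alternatives covered scaling, filters, dispersion, test, unit, unannotated features and each library left out.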

Additional observations from a re-analysis of the deposited data

How the results depend on the processing

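No paired analysis was possible because the rats of the 2 groups share no replicate number. Depth limits the members little, since the lowest count of either was 578, but an exact permutation test of 3 against 3 rats has 0.1 as its smallest p. The number of features called, 59 with edgeR, was 103 with scaling by library size alone, 433 with no filter on low counts, 2 without the robust option, 865 with DESeq2, 3 with limma voom, and 9 to 266 with 1 library left out (9 without C2, C4 or P14, 15 without C3, 135 without P8 and 266 without P13). Of the 9 named genes on all lists, immediate early genes included, edgeR called 3. It called 1 with scaling by library size alone, 8 with no filter, 0 without the robust option and 0 to 5 with 1 library left out, and DESeq2 called 9 and limma voom 0. Where none was called, the unadjusted p was under 0.05 for 9 of them (no robust option, limma voom, without C4) or 8 (without C2 or P14). These 9 genes have names because the study called them on the same libraries, so none of these counts is independent evidence. The causes of the changes in the calls were not tested. The log2 fold change of Ppp1r15a was 0.36 on the log2(FPKM + 1) scale and 0.38 on log2(FPKM + 0.1), and both scales lack TMM. Apart from log2(FPKM + 1), the other 15 alternatives moved the estimate by less than 1 SD between replicates, as did all 16 for Novel00474. An r of 0.9 or more on log2(FPKM + 1) was reached by 200 features with Ppp1r15a and by 184 with Novel00474. Leaving out every unannotated feature except Novel00474 was added after the data were seen and gave Novel00474 a log2 fold change of 0.34.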

Other observations

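Ppp1r15a, Atf5 and Josd2 lie close to each other in the rat genome. On the RefSeq assembly GRCr8 all 3 fall on chromosome 1 within 1.04 Mb, a span that holds 66 protein-coding genes. Their log2 fold changes, PO over control odor, were 0.44, 0.33 and 0.58. Josd2 and Ppp1r15a are themselves the ends of the span, so its share of named genes is set by how it was drawn and is not compared with that of the genome. The levels of the other genes of the span were not analysed here, and the closeness was seen in the data after the genes had been chosen, so no test was made of it.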
